A study of Mus musculus with 2 samples.

Results

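The genes described here are 10 genes of the Nodal and Activin signalling pathway of the mouse, out of 21938 protein-coding genes in the annotation. They were chosen by name and role, with earlier results of these data known: the ligand Nodal, its coreceptor Tdgf1 (Cripto), the receptor kinases Acvr1b and Acvr2b, the secreted inhibitors Lefty1 and Lefty2, the receptor-activated Smads Smad2 and Smad3, and the intracellular inhibitors Smad7 and Skil. For each gene, Nanog peaks were counted within 100 kb of the transcription start site (TSS), and so were the peaks for which the gene was the nearest protein-coding gene. A peak is an interval in which the sequenced fragments were called as enriched. Together the 10 genes had 21 of the 8737 distinct peaks within 100 kb of a TSS and were the nearest protein-coding gene to 20, which made 24 peaks by either rule.

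The cells were Bruce-4, an embryonic stem cell (ESC) line of the mouse, grown in medium with fetal bovine serum and leukemia inhibitory factor (mLIF). Chromatin carrying Nanog, a homeodomain factor of the pluripotent state, was recovered with a rabbit monoclonal antibody and sequenced (ChIP-seq) in 1 sample, and 1 input sample was taken from chromatin that had not met the antibody. Both samples share the cell line and the culture, no other treatment or genotype was compared, and neither sample had a replicate. The deposited list holds positions of peaks and nothing else, so each value below describes 1 library, the reads behind a peak are not given, and a site under the threshold of the peak call cannot be told from one without Nanog. The labelled cell type could not be checked against marker genes, since expression was not measured in these samples.

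Nodal and Activin are secreted ligands of the TGF-β family. They bind a pair of type I and type II receptor kinases, Nodal with the help of Tdgf1, and the receptors phosphorylate Smad2 and Smad3, which enter the nucleus with Smad4 and act on DNA beside partners such as Foxh1. Lefty1 and Lefty2 block Nodal outside the cell, Smad7 blocks the receptors and Skil represses Smad complexes in the nucleus, and several of these inhibitors are themselves targets of the pathway. In mouse ESCs the pathway is active and Nodal, Lefty1 and Lefty2 are expressed, while in the embryo it patterns the body axes and forms mesoderm and endoderm.

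The peaks closest to Nodal, Lefty1, Lefty2 and Smad3 carry the main observations on sequence, and they are printed here from GRCm38 (mm10), 5′ to 3′ on the strand of the gene. Peaks over 300 bases are shown as the middle 300. Capitals mark copies of the searched motifs on either strand: octamer ATGCAAAT, Sox CCATTGT or CCTTTGT, Klf GCCACACCC, GCCACGCCC, GCCCCACCC or GCCCCGCCC, Smad CAGACA and Foxh1 AATCCACA or AATACACA. The stretch at Nodal, chr10:61415888-61416187, plus strand, holds 1 Klf copy. The stretches at Lefty1, chr1:180924711-180925010, and Lefty2, chr1:180888759-180889058, both plus strand, are shown for their Foxh1 pairs. The stretch at Smad3, chr9:63742041-63742340, minus strand, is shown for its octamer.
Nodal: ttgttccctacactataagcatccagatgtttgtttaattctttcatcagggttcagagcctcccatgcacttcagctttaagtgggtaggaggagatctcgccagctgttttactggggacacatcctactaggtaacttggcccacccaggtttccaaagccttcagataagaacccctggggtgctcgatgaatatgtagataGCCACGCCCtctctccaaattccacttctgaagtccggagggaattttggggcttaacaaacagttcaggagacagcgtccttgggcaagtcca
Lefty1: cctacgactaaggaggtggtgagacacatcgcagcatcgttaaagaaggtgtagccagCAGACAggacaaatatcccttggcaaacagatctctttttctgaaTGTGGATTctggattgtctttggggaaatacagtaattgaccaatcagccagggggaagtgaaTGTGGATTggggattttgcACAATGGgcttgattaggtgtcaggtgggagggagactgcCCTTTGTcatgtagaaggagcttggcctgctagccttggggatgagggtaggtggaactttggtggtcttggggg
Lefty2: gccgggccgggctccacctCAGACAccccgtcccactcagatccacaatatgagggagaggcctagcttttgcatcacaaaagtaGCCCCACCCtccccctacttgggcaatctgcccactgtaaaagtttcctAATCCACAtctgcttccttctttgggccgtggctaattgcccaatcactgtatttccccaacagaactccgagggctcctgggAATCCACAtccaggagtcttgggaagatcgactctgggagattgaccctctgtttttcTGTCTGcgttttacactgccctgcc
Smad3: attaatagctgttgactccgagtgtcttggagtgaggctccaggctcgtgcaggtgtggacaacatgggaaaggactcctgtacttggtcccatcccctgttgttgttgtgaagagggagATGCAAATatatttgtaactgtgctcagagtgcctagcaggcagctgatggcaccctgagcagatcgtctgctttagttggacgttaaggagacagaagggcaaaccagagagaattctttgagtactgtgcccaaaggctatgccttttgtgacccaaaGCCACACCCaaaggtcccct
The Smad palindrome GTCTAGAC, which joins a pair of Smad boxes, lay in the same Lefty2 peak beyond the printed middle, 415 bp from the centre, and is shown with its surroundings at chr1:180889293-180889352, plus strand.
Lefty2 palindrome: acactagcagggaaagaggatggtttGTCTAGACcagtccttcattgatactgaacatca

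Nanog peaks lay within 100 kb of 9 of the 10 genes (90.0%), against 54.4% of all protein-coding genes. At least 2 peaks lay there for 6 of the 10 (60.0%), against 26.1% of coding genes. Of these 6, Lefty1 and Lefty2 counted on the same 2 peaks, and both Skil peaks and 1 Nodal peak were nearest to another coding gene. By the nearest-gene rule only Tdgf1 and Smad7 had at least 2 peaks, against 8.59% of coding genes. A peak lay within 5 kb of the TSS for Nodal, Tdgf1 and Lefty2, 3 of 10 (30.0%), against 6.20% of coding genes, and 7 of the 10 (70.0%) were the nearest coding gene to at least 1 peak, against 24.4%. The median was 2.00 peaks within 100 kb over the 10 genes and 1.00 over all coding genes. The median distance from the TSS to the closest peak was 13.0 kb over the 10 genes. It was 85.3 kb over coding genes on chromosomes with a peak, which leaves out the 183 on chromosome Y. Smad7 alone accounted for 10 of the 21 peaks within 100 kb. Without Smad7 the other 9 genes had 11 peaks, and 8 of 9 still had at least 1 (88.9%).

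**Figure D1:**
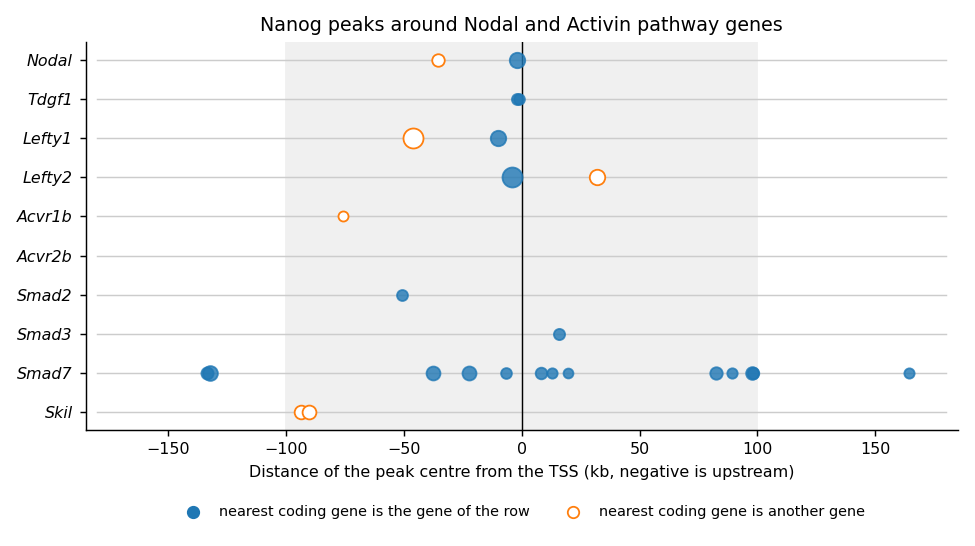
Distance of each Nanog peak centre from the TSS in kb (x axis, negative upstream in the direction of transcription) for the 10 genes (y axis), with the 100 kb window in grey and the symbol area proportional to peak width. Filled symbols have the gene of that line as nearest coding gene and open ones another gene; all peaks of Nodal, Tdgf1 and Lefty1 lie upstream, Smad7 has 13 filled symbols on both sides of its TSS, and Acvr2b has no symbol.

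**Figure D2:**
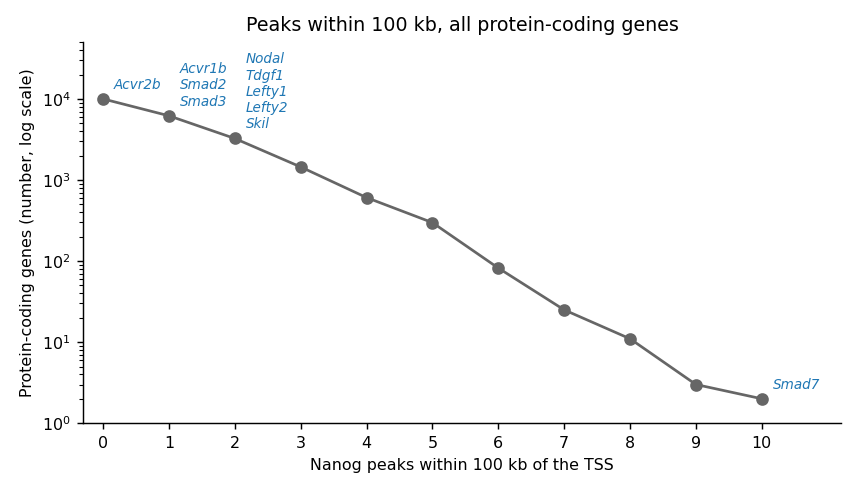
Number of protein-coding genes (y axis, log scale) with each number of Nanog peaks within 100 kb of the TSS (x axis), with the 10 genes named at their counts. Smad7 stands at 10 peaks with only 1 other gene, while Acvr2b stands with the 10013 coding genes without a peak.

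The ligand gene Nodal (ENSMUSG00000037171.6, chr10:61417972-61425338, plus strand) had 2 peaks within 100 kb. The closer one, chr10:61415745-61416330, was centred 1935 bp upstream of the TSS in intergenic sequence, and 3.28% of coding genes had a peak at least as close. It was 586 bp wide, rank 274 of 8735 by width, against a median of 319 bp over all peaks, and it was 1 of 122 peaks (1.40%) whose interval was listed more than once. Its 2 motif copies were the Klf copy 61 bp downstream of the centre and a Smad copy 222 bp upstream of it. The other peak, chr10:61382167-61382551, lay 35.6 kb upstream of Nodal but only 1.17 kb from the TSS of Pald1, in an intron of that gene, and held none of the searched motifs. By the nearest-gene rule Nodal therefore kept only the closer peak.

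Tdgf1 (ENSMUSG00000032494.12, chr9:110939603-110946158, minus strand), the cell-surface coreceptor of Nodal, had 2 peaks, both upstream, intergenic and nearest to Tdgf1. The first, chr9:110947358-110947645, was centred 1343 bp from the TSS, and 2.73% of coding genes had a peak at least as close. By the 5′ end of the gene it was the closest peak of all 10 genes, but with the TSS of every transcript Smad7 and Smad3 had closer ones. The second, chr9:110948044-110948348, was centred 2038 bp from the TSS, and 398 bp of sequence separated the pair. They were 288 and 305 bp wide, both below the median width. The first held 1 copy of the Nanog core motif, CCATTA, 42 bp from its centre, and the second held none of the searched motifs. The next peak lay 201 kb from the TSS, so the pair stood alone in the window, which holds the TSSs of 7 other coding genes.

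The receptor genes Acvr1b and Acvr2b had 1 and 0 peaks within 100 kb, against a median of 1.00 over coding genes. Within 250 kb they had 2 and 3, against a median of 2.00, and within 500 kb 7 and 5, against 4.00. Acvr1b (ENSMUSG00000000532.11, chr15:101174067-101213684, plus strand), the type I receptor kinase Alk4, had 1 peak, chr15:101098010-101098257, centred 75.9 kb upstream. That peak was 248 bp wide with 65.7% G+C and no searched motif, and the TSSs of Ankrd33 and Acvrl1 lay between it and Acvr1b, so that Ankrd33, 17.6 kb away, was its nearest coding gene. Acvr2b (ENSMUSG00000061393.14, chr9:119402118-119434995, plus strand), a type II receptor kinase, had no peak within 100 kb, and its closest was 130 kb from the TSS. A window without a listed peak was common, with 10013 coding genes (45.6%) in that position. Neither receptor gene was the nearest coding gene to any peak.

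The secreted inhibitor genes Lefty1 (ENSMUSG00000038793.8, chr1:180935022-180938400) and Lefty2 (ENSMUSG00000066652.5, chr1:180893108-180899103) lie on the plus strand with their TSSs 41.9 kb apart, and 2 peaks fell in the windows of both. The Lefty2 peak, chr1:180888418-180889399, was centred 4200 bp upstream of Lefty2 and was 982 bp wide, rank 7 of 8735. The Lefty1 peak, chr1:180924568-180925153, was centred 10162 bp upstream of Lefty1 and was 586 bp wide, rank 274. Each was intergenic and nearest to the gene after which it is named here. A peak at least as close was found for 5.36% of coding genes in the case of Lefty2 and 10.6% in that of Lefty1. Beyond these peaks the next one was 328 kb from Lefty1 and 286 kb from Lefty2.

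Both Lefty peaks held 2 copies of the Foxh1 motif, the site of the forkhead protein that carries Smad2 and Smad3 complexes to DNA. In the Lefty1 peak the copies were both on the minus strand, 63 bp apart from start to start, and 21 and 42 bp from the peak centre. In the Lefty2 peak they were both on the plus strand, 83 bp apart, and 11 and 72 bp from the centre. These 2 peaks were the only ones with a Foxh1 copy among the 21 (9.52%, exact 95% interval 1.17 to 30.4%), and 5.06% of all peaks and 3.88% of the flanks held at least 1. A pair of Foxh1 copies is less common: 13 of 8735 peaks (0.149%) held at least 2, and in 9 (0.103%) the copies started within 100 bp of each other. The other 7 of those 9 had Gm10750, Zyg11b, Igf2bp3, Rybp, Crtc3, Ncam1 and Syk as nearest coding gene. Width bears on such counts, and of the 278 peaks (3.18%) at least as wide as the Lefty1 peak only the Lefty pair held 2 Foxh1 copies. The counts of Foxh1 pairs were chosen after the motifs of these peaks had been seen and describe them only.

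The Lefty peaks differed in their copies of the Smad box. The Lefty2 peak held 6 Smad copies, or 6.11 per kb, and the Lefty1 peak held 1, or 1.71 per kb, while all peaks together had 1.14 per kb. Only 4 of 8735 peaks (0.0458%) held 6 or more. The Lefty2 peak was also the only peak of the list with both a Foxh1 copy and the Smad palindrome. At least 2 Foxh1 copies with a Smad copy occurred in 3 peaks (0.0343%), the Lefty pair and the peak nearest to Gm10750. In addition the Lefty1 peak held 2 Sox copies and the Lefty2 peak 2 Klf copies, and neither held a Nanog core copy or an octamer.

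**Figure D3:**
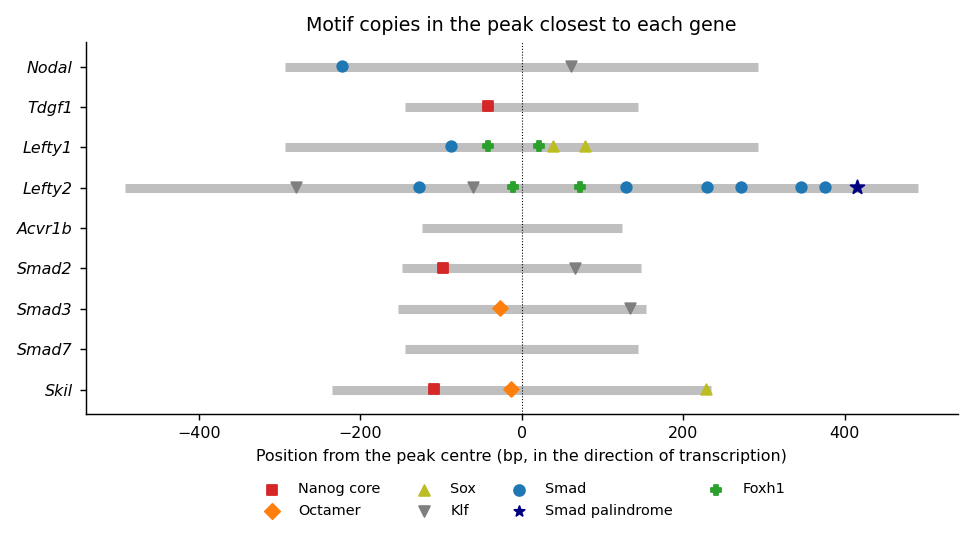
Position of each motif copy from the peak centre in bp (x axis, in the direction of transcription) in the peak closest to each of the 9 genes with a peak within 100 kb (y axis), with grey bars for the extent of the peak. The Lefty1 and Lefty2 peaks each show 2 Foxh1 copies within 72 bp of the centre, the Lefty2 peak adds 6 Smad copies and the palindrome, and the bars of Acvr1b and Smad7 are empty.

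The sequences of the Lefty peaks were partly alike. A local alignment (blastn, limit on the expected number of chance hits 1e-05) paired 72 bases of the Lefty1 peak, chr1:180924833-180924904, with 81 bases of the Lefty2 peak, chr1:180888873-180888953, on opposite strands, and 57 of 81 alignment columns (70.4%) were identical. The aligned stretch included 1 Foxh1 copy of each peak. Among the 276 pairs that the 24 peaks form, this was the only pair with an alignment under that limit.

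A further element upstream of Lefty1, which the study cloned in front of a reporter gene, was located in the genome by its primer-bounded sequence. It spans chr1:180933759-180934157, 399 bp, from 865 to 1263 bp upstream of the Lefty1 TSS. The study gives a greater length for this element. No interval of the deposited list overlapped the located sequence, and the closest, the Lefty1 peak, lay 8.61 kb away from edge to edge. The element held 1 octamer, 1 Sox and 1 Smad copy and no Foxh1 copy. The study reports that Nanog binds this element in ESCs. Since the list shows neither signal nor sites under the threshold, the lack of an interval does not show that Nanog was absent there. Nanog signal at the element was not tested here.

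Of the receptor-activated Smads, Smad3 (ENSMUSG00000032402.12, chr9:63646767-63757994, minus strand) had 1 peak, chr9:63742037-63742343, 15.8 kb downstream of its TSS in its own intron. It was 307 bp wide and held 1 octamer 27 bp from the centre and 1 Klf copy. Smad2 (ENSMUSG00000024563.16) also had 1 peak, 296 bp wide, 50.6 kb upstream of its TSS in intergenic sequence, with 1 Nanog core and 1 Klf copy. Both peaks had the Smad as nearest coding gene. No other coding TSS lay within 100 kb of Smad2 or Smad3, against a median of 3 over all coding genes, and the stretch of genome nearest to the TSS was 518 kb long for Smad2 and 210 kb for Smad3, against a median of 47.6 kb. When the TSS of every annotated transcript was used, the Smad3 peak lay 1.07 kb from one of them.

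Smad7 (ENSMUSG00000025880.11), the inhibitory Smad that occupies the activated receptors, had the most peaks of the 10 genes, with 10 within 100 kb and 13 for which it was the nearest coding gene. Only 2 coding genes had 10 peaks within 100 kb, Smad7 and Tns3, and none had more. By the nearest-gene rule only Arhgap21, with 15, had more. The 13 peaks were 240 to 539 bp wide and spread over 298 kb, 5 upstream and 8 downstream of the TSS. Upstream, the distances from the TSS were 134, 132, 37.5, 22.3 and 6.50 kb. Downstream they were 8.26, 12.8, 19.8, 82.3, 89.3, 97.6, 98.2 and 164 kb. The peaks at 8.26, 12.8 and 19.8 kb lay in Smad7 introns, the 5 farther downstream in introns of Ctif, the 2 farthest upstream in introns of Dym, and the other 3 between genes. The TSSs of Ctif and Dym, taken at the 5′ end of the gene, were 330 and 349 kb from that of Smad7, farther than from Smad7 to any of these 13 peaks. When the TSS of every transcript was used, Smad7 was the nearest coding gene to 10 peaks instead of 13.

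Neighbouring Smad7 peaks were grouped. With peaks joined where less than 12500 bp separated them, 9 of the 13 fell into stretches of 2, 3 and 4 peaks: the pair in Dym, the peaks in the Smad7 introns and a group in Ctif. The smallest gap was 219 bp and the largest 94.2 kb. No other coding TSS lay within 100 kb of Smad7, and the stretch of genome nearest to its TSS was 339 kb long, against 648 kb for Arhgap21. With noncoding genes and pseudogenes also allowed as nearest gene, Smad7 kept 3 of the 13, those in its own introns. The closest peak, 6.50 kb upstream, held none of the searched motifs, and with the TSS of every transcript the closest distance was 0.878 kb. The Smad7 window held 50.0 peaks per Mb (exact 95% Poisson interval 24.0 to 92.0). The windows of the other 9 genes held 6.70 (3.34 to 12.0) and the genome 3.20 (3.14 to 3.27). The genome value includes sequence far from genes, so it is not a matched background for windows around a TSS. Over all coding genes the mean was 0.992 peaks within 100 kb of the TSS. The Poisson intervals take peaks as independent, although 7 of the 10 Smad7 peaks lay in stretches. Smad7 was set apart after its count had been seen.

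Skil (ENSMUSG00000027660.16, chr3:31095058-31122577, plus strand), the nuclear corepressor SnoN, had 2 peaks near the edge of the window. They lay 90.0 and 93.5 kb upstream, both in introns of Prkci, whose TSS was 9.29 and 5.78 kb from them and was the nearest. The closer peak, chr3:31004800-31005268, was 469 bp wide with 1 Nanog core, 1 octamer and 1 Sox copy, the only peak of the 21 to hold all 3. The other, chr3:31001299-31001757, was 459 bp wide with 1 Smad copy. The 2 intracellular inhibitors were thus unlike, with 13 peaks nearest to Smad7 and 0 nearest to Skil.

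Set side by side by role, the 4 genes whose products act outside the cell or at its surface as ligand, coreceptor or inhibitor (Nodal, Tdgf1, Lefty1 and Lefty2) had their closest peaks at 1343 to 10162 bp. The 4 genes acting inside the cell (Smad2, Smad3, Smad7 and Skil) had theirs at 6505 to 90024 bp, and the 2 receptor genes at 75934 and 130383 bp. A peak within 5 kb was found for 3 of the first 4 genes and for none of the other 6, but with the TSS of every transcript Smad3 and Smad7 also had one, at 1.07 and 0.878 kb, which put them among the closest of the 10. By number the order differed: the genes acting inside the cell had 14 distinct peaks within 100 kb, of which Smad7 had 10, the secreted and surface group had 6 and the receptors 1. The negative regulators Lefty1, Lefty2, Smad7 and Skil together had 14 peaks and the 6 positive members 7, but without Smad7 the negative regulators had 4, so the direction rested on that gene. With 1 library and 1 to 2 genes a role, these differences carry no test.

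The number of genes with a peak depended on the window. Within 2.50 kb only Nodal and Tdgf1 had peaks, 2 of 10 against 3.78% of coding genes. Within 10 kb 4 genes had one against 10.5%, and within 25 kb 6 genes against 21.2%. Extending the window to 50 kb added no gene, with 34.9% of coding genes then having a peak, and 100 kb added Acvr1b, Smad2 and Skil. At 250 kb all 10 had one, against 79.7%, with medians of 2.50 and 2.00 peaks. Of the peaks inside the 100 kb limit the farthest lay at 98.2 kb (Smad7), and just outside it lay peaks at 102 kb from Nodal and 103 kb from Acvr1b.

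**Figure D4:**
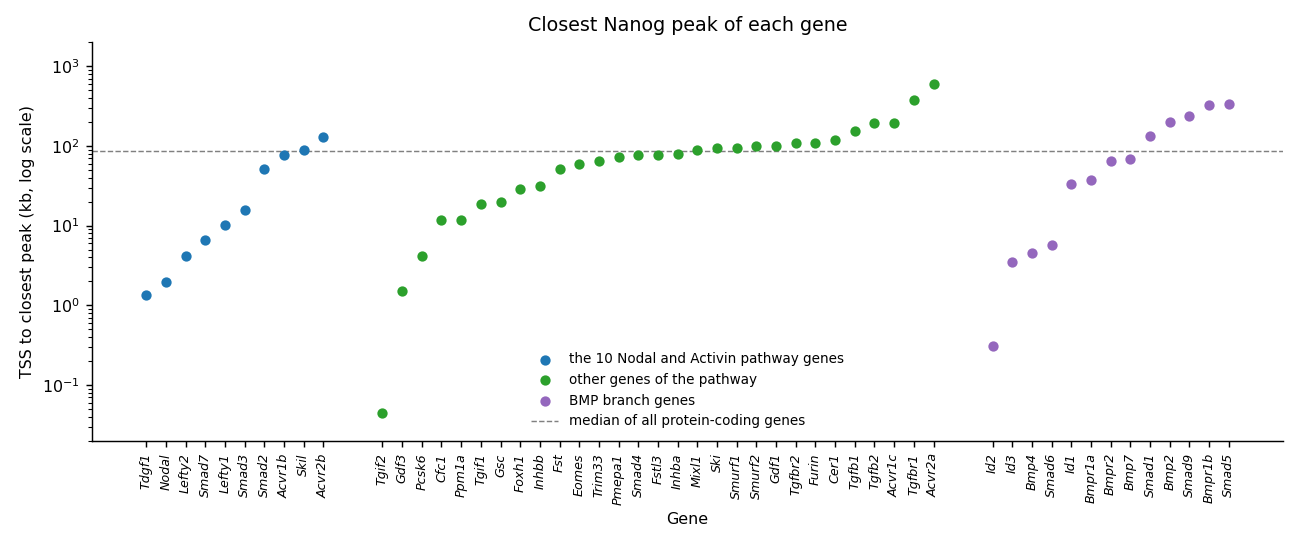
Distance from the TSS to the closest Nanog peak in kb (y axis, log scale) for each gene (x axis). Genes are ordered within the 10 genes, other genes of the pathway (with ligands and receptors of TGF-β itself) and genes of the BMP branch. The dashed line is the median of protein-coding genes on chromosomes with a peak, 85.3 kb, and 1 gene of the pathway list is not drawn. Of the 10 genes 8 lie below the line, and the receptor genes Acvr2a, Tgfbr1, Acvr1c and Tgfbr2 lie above it.

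Other genes of the pathway were counted in the same way, together with the ligands Tgfb1 and Tgfb2 and the receptors Tgfbr1 and Tgfbr2 of TGF-β itself. Of 30 such genes, 21 had a peak within 100 kb (70.0%), 8 had at least 2 (26.7%), 3 had one within 5 kb (10.0%) and 13 were nearest to a peak (43.3%), with a median of 1.00 peak. The shares over all coding genes were 54.4, 26.1, 6.20 and 24.4%, so that the share with at least 2 peaks was near the background. Tgif1, a homeodomain repressor of Smad2 target genes, had 7 peaks within 100 kb and was nearest to 9, and 0.187% of coding genes had at least as many within 100 kb. Gdf3, a ligand that shares the Nodal receptors and coreceptor, had 5, the closest at 1503 bp, and was nearest to 1. The Smad partner Trim33, the phosphatase Ppm1a and the target gene Gsc had 4 each, and were nearest to 1, 2 and 2. Tgif2, a relative of Tgif1, had its single peak 44 bp from the TSS, and Pcsk6, a convertase that cleaves the Nodal precursor, had one at 4124 bp. Foxh1 itself had 1 peak, 28.5 kb from its TSS, and Smad4 had 1, at 76.7 kb. Neither Foxh1 nor Smad4 was the nearest coding gene to any peak.

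The 4 other receptor genes of the list, Acvr1c, Acvr2a, Tgfbr1 and Tgfbr2, had no peak within 100 kb, with the closest at 197, 599, 372 and 109 kb, although Tgfbr2 was the nearest coding gene to 2 peaks farther away. Of Acvr1b, Acvr2b, Acvr1c and Acvr2a, only Acvr1b had a listed peak in that window, while 54.4% of coding genes had one and 45.6% had none. Of the BMP receptor genes, Bmpr1a had 1 peak there, Bmpr2 had 2 and Bmpr1b had 0. Also without a peak there were the ligands Tgfb1 and Tgfb2, the inhibitor Cer1 and the convertase Furin. In the BMP branch, which signals through Smad1, Smad5 and Smad9, 8 of 13 genes had a peak within 100 kb (61.5%), 6 had at least 2 (46.2%), 3 had one within 5 kb (23.1%) and 6 were nearest to a peak (46.2%), with the same background shares, of which 54.4% is near the first. Its receptor-activated Smads had none, with the closest peak at 134 kb or farther, and Smad2 and Smad3 had 1 each. Counts of 0 and 1 were both common, at 45.6 and 28.2% of coding genes, and within 50 kb Smad2 had no peak either. Smad6, the inhibitory Smad of that branch, had 2, the closest at 5763 bp, against 10 for Smad7. The BMP targets Id2 and Id3 had 4 and 5, the closest at 307 and 3450 bp.

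As a group the 21 peaks were 240 to 982 bp wide with a median of 333 bp, and 12 were at or above the median of all peaks. At the centre 10 were intergenic and 11 intronic, and none lay in a coding exon or UTR. The centre fell in a repeat for 1 (4.76%, interval 0.120 to 23.8%), against 20.4% of all peaks. Of the 21, 11 belonged to a stretch of at least 2 peaks (52.4%, 29.8 to 74.3%), against 24.1% of all peaks, and without Smad7 the share was 36.4% (10.9 to 69.2%). These exact Clopper-Pearson intervals hold the counting error alone and take the peaks as independent, although neighbouring peaks may not be. Of the 10 genes, 5 had a RefSeq promoter sequence (250 bases before to 50 after the start), and none of these overlapped a peak, while 1.32% of all such windows did.

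The Klf motif was found in 7 of the 21 peaks (33.3%, 14.6 to 57.0%), at Nodal, Lefty2, Smad2, Smad3 and in 3 Smad7 peaks, against 9.00% of all peaks and 2.29% of flanks, windows of the same width 1 kb beyond each edge. In the central 200 bp the Klf share of the 21 peaks was 23.8% (8.22 to 47.2%), and no such share was computed for all peaks. Several motifs were compared, with no correction for their number. The Klf motif is rich in G and C, and the 21 peaks had a median of 52.5% G+C against 47.7% of all peaks. The part of base composition in the Klf share was not tested. The Sox motif was found in 2 (9.52%, 1.17 to 30.4%), against 28.2% of all peaks, a value inside the interval. Nanog core copies were in 5 (23.8%, 8.22 to 47.2%), against 18.1% of all peaks and 13.0% of flanks, and Smad copies in 8 (38.1%, 18.1 to 61.6%), against 31.0 and 29.5%. The octamer was in 2 (9.52%), against 5.72% of all peaks, and the palindrome in 1 (4.76%), against 0.424%. The extended Nanog motif GCCATTAA, which contains the core, the Esrrb motif TCAAGGTCA and the Oct4-Sox2 composite were in none of the 21, which allows shares up to 16.1%, with 2.14, 3.53 and 1.40% of all peaks holding them. At least 1 of the Nanog core, octamer, Sox, composite, Klf and Esrrb motifs was in 11 of 21 (52.4%), and in 52.2% of all peaks. A match describes the letters only, and the absence of a match says no more than that these letters are not in the peak.

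**Figure D5:**
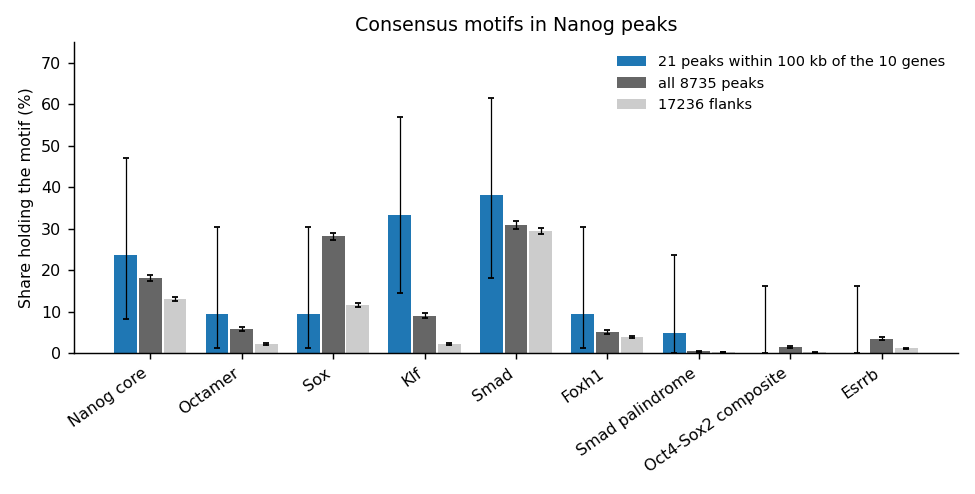
Share of peaks or flanks (y axis, percent) holding each consensus motif (x axis) among the 21 peaks within 100 kb of the 10 genes, all 8735 peaks on chromosomes 1 to 19 and X, and 17236 flanks, with exact 95% Clopper-Pearson intervals as bars. The interval of the 21 peaks lies above the share of all peaks for Klf and includes that share for Nanog core, octamer, Sox, Smad and Foxh1.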

How the data were processed

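The series holds 1 Nanog ChIP and 1 input sample of Bruce-4 ESCs. Per the labels and methods, reads were checked with FastQC, aligned to mm10 with Bowtie2, cleared of low-quality, duplicate, blacklisted and mitochondrial reads (BEDtools, SAMtools) and passed to MACS2 for peak calling. Its threshold, and whether the input served as control, are not given in the sources used here, and both decide which weak sites are listed. The authors deposited 3 columns (chromosome, start, end), with no score or count. The input has no peak list in use here. Of 8860 lines, 8737 were distinct and 8735 lay on chromosomes 1 to 19 and X, which entered all counts by gene.

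Distances ran from the middle base of the peak to the 5′ end of the gene (GENCODE vM21). The nearest gene was the protein-coding gene with the closest TSS, at most 1000 kb away. Positions are 1-based. Motifs were searched on both strands, without mismatch except in the composite (at most 2). Flanks with an N base or overlapping a peak were left out. Promoters came from RefSeq (GRCm38.p6). Named were the 10 genes, the genes of both lists, the nearest coding gene of each peak and each gene's closest peak; some items are not reported here, and other genes were named after their values were seen. The 10 genes and the lists were chosen with earlier results of these data known. No p-value was computed, since 1 library has no replicate error. Counting and motif steps were tested on simulated data. Alternatives were other windows, edges, TSSs, nearest-gene rules, widths and stitching distances. Tools were Python 3.11.15, numpy 2.4.6, pandas 2.3.3, scipy 1.17.1, pysam 0.24.0, samtools 1.23.1, blastn 2.17.0 and matplotlib 3.10.9.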

Additional observations from a re-analysis of the deposited data

How the results depend on the processing

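Of 217 alternative values, 184 stayed within the limits set for a change and 33 did not. A share counted as unchanged inside the exact interval of its main value, which is wide for 21 peaks. A count or median counted as unchanged within a fixed ratio, so that 9 genes with a peak within 100 kb and 6 within 50 kb passed. Values of 0 in both settings passed as well, so the tally does not measure robustness. The 21 distinct peaks became 13 with a window of 50 kb, 35 with 250 kb, 12 when only peaks at or above the median width were kept, and 11 without Smad7. Among the wider peaks, 5 genes had one within 100 kb (34.5% of coding genes), the median was 1.00, 11 peaks had one of the 10 genes as nearest gene and 4 genes were nearest to a peak. The 20 peaks nearest to one of the genes became 9 with all annotated genes allowed and 7 without Smad7. With the TSS of every transcript, 5 genes (with Smad3 and Smad7 added) had a peak within 5 kb, against 9.33% of coding genes. In the central 200 bp the share with the Smad palindrome was 0. Leaving out Smad7 was chosen after seeing the data. With stitching at 5 or 25 kb, 38.1 and 66.7% of the 21 peaks were in stretches, against 13.9 and 36.0% of all peaks. A stricter threshold could not be applied, because the list holds no strength, and width does not stand for strength. No paired analysis was possible because each group has 1 sample and no result comes from a test. No replicate could be left out. The list gives no reads for a peak, so genes without a listed peak may still have Nanog sites below the threshold.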
